A study of Homo sapiens with 9 samples.

Results

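The aldo-keto reductases are cytosolic enzymes that use NADPH to reduce aldehydes and ketones on sugars, lipids, steroids and prostaglandins. The members described here are AKR1A1, AKR1B1, AKR1B10, AKR1C1, AKR1C2, AKR1C3, AKR1C4, AKR1D1, AKR7A2 and AKR7A3. The family was chosen from differences already seen between the groups compared below, so its values on this contrast are given as a description, without a test. Probe sets were taken where the platform annotation names one of these 10 genes. Of the 10 genes, 8 had a probe set that names them alone, with 16 such probe sets in all, out of 19775 genes and 54613 probe sets. AKR1A1, the aldehyde reductase, and AKR1B1, the aldose reductase of the polyol pathway, had none and were not analysed here. A further probe set names both AKR1C2 and AKR1C1 and is reported apart.

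The RNA came from HuCCT1, an established human cholangiocarcinoma line, grown in culture and hybridised to single-colour arrays. One group of 5 arrays, called YAPS127A after its labels, came from cells transfected with a vector for a constitutively active YAP1, the transcriptional co-activator of the Hippo pathway. In this form a serine that the LATS kinases phosphorylate is replaced by alanine. The other group of 4 arrays came from cells transfected with an empty vector. All cells were of 1 line, no label says that arrays of a group came from separate cultures or clones, and no time of harvest is stated, so p-values measure only the spread between these samples. Values are the deposited log2 signals of each probe set, and differences are YAPS127A minus empty vector.

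In liver and bile duct biology, aldo-keto reductases are known for clearing reactive aldehydes and for steroid, bile acid and prostaglandin metabolism. AKR1B10 reduces retinal and other aldehydes and is often raised in liver and lung cancers. The AKR1C genes form a cluster of close copies on chromosome 10 and encode hydroxysteroid dehydrogenases. Several members, among them AKR1B10 and AKR1C1 to AKR1C3, are textbook targets of NRF2, the factor that drives the response to oxidants and electrophiles through antioxidant response elements (AREs).

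Because AKR1C1, AKR1C2 and AKR1C3 carried lower signals together on the arrays while AKR1C4 was dim throughout, the RefSeq promoter windows of the 4 genes are shown here. Each runs from 250 bases before to 50 bases after an annotated start site, 5′ to 3′ along the gene, on GRCh38.p14. Capitals mark ATTGG, the reverse complement of the CCAAT box, which lies on the opposite strand. The windows are chr10:4963165-4963464 on the plus strand for AKR1C1, chr10:5003808-5004107 on the minus strand for AKR1C2, chr10:5048531-5048830 on the plus strand for AKR1C3 and chr10:5196587-5196886 on the plus strand for AKR1C4.
AKR1C1: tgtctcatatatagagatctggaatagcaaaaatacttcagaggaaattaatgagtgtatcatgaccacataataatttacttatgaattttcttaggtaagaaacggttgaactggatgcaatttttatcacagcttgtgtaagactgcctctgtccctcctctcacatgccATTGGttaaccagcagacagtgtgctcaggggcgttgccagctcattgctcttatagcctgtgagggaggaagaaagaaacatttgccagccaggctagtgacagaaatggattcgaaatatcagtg
AKR1C2: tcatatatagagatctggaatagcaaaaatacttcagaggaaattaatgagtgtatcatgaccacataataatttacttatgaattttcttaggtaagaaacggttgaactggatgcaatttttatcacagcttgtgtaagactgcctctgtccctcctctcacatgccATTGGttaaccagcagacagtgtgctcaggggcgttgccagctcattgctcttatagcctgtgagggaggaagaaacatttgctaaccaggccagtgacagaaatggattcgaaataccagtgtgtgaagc
AKR1C3: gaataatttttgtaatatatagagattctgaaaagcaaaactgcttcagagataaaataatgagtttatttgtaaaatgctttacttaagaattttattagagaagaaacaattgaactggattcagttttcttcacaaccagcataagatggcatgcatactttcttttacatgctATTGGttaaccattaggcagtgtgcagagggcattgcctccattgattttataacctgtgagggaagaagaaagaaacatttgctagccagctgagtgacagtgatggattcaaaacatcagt
AKR1C4: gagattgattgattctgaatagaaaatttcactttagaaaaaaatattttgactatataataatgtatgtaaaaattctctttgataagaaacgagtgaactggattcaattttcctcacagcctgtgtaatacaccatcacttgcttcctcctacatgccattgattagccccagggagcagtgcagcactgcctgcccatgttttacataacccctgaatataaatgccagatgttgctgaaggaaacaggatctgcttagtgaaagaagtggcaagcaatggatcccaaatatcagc

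The windows of AKR1C1 and AKR1C2 are nearly the same sequence, with 288 of 292 aligned bases identical (98.6%). AKR1C1 shares 233 of 288 aligned bases with AKR1C3 (80.9%) and 211 of 268 with AKR1C4 (78.7%). The CCAAT box begins 77, 81 and 73 bases before the start site in AKR1C1, AKR1C2 and AKR1C3, and these letters are not in the AKR1C4 window. Over all 35116 windows of the RefSeq table, 34.6% hold CCAAT on either strand. A second annotated start of AKR1C3, in the window chr10:5094164-5094463, also has the CCAAT box and carries GGAATG, the reverse complement of the TEAD motif CATTCC, from 29 bases after its start site. TEAD proteins are the DNA-binding partners of YAP1, and 14.0% of all windows hold their motif on either strand. The printed windows leave out that second AKR1C3 start, and which start these cells use was not tested. None of the 4 printed windows holds the TEAD motif, the AP-1 motif TGANTCA (in 7.71% of all windows) or the ARE core TGACNNNGC (in 13.3%), searched on both strands. Among the other members with a window, AKR7A2 has 3 ARE core matches. No window was found for AKR1B10, so its promoter was not searched. AKR1B1, whose signal was not analysed here, also has a CCAAT box, 98 bases before 1 of its annotated start sites. A match is a description of the letters only, and AREs outside these windows were not searched.

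The YAP1 transcript itself did not pass the test. The 3 YAP1 probe sets differed by +0.15 (SE 0.06, adjusted p = 0.121), +0.16 (SE 0.08, adjusted p = 0.171) and +0.03 (SE 0.06, adjusted p = 0.803), and the labels do not say whether the vector carries the sequences they probe. Among standard YAP1 targets, ANKRD1, a muscle ankyrin repeat protein, was 4.73-fold higher (+2.24, SE 0.13, adjusted p = 3.38e-07) and CCN1, a secreted matrix protein, was 1.36-fold higher (+0.45, SE 0.08, adjusted p = 0.00114). CCN2 differed by +0.22 (SE 0.09, adjusted p = 0.107). The cells carried high signals of the biliary keratins on both sides, with KRT19 at 14.21 ± 0.10 in YAPS127A cells and 14.19 ± 0.10 in empty vector cells (SD, n = 5 and n = 4). Of 8 measured cholangiocyte markers, 5 fell and none rose, while 14.2% of all genes were called lower and 14.5% higher. The 5 were TFF1, CFTR, SPP1, MUC1 and SOX9, and the mean level of the list ran from 9.47 to 9.59 across YAPS127A arrays and from 10.35 to 10.46 across empty vector arrays. The SOX9 call was lost in 4 of 19 alternatives, among them the fit without empty vector replicate 1 (adjusted p = 0.0573). On probe sets without the array maker's suffix for cross-matching, 2 markers were called. CFTR, the chloride channel of the duct epithelium, fell (adjusted p = 3.78e-07) to 4.02 in YAPS127A cells, below the arrays' lower quartile, against 6.74 in empty vector cells. Its difference was -2.72 on the brightest probe set and -0.97 as a mean of its 6 probe sets. The lower marker signal moved with the family's, and its part in the family's differences was not tested. ALB, the hepatocyte product, was near the lower quartile of the arrays at 4.23 in YAPS127A cells and 4.26 in empty vector cells. Of 10 hepatocyte markers CPS1 rose, SERPINA1 fell and 8 did not pass. Of 6 fibroblast markers LUM rose, COL1A1 fell and 4 did not pass, and of 6 immune and endothelial markers CD14 fell and 5 did not pass.

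The genes AKR1B10, AKR1C1, AKR1C2 and AKR1C3 carried strongly lower signals in YAPS127A cells, and the other 4 measured genes did not. In RNA pooled from many cells, fewer cells expressing a gene and less RNA per cell cannot be told apart. By the fit over all probe sets (limma, Benjamini-Hochberg adjusted p under 0.05), 4 of the 8 genes were lower, 0 higher and 4 not called. Of all 19775 genes, 28.7% were called, with 14.2% lower and 14.5% higher. The same 4 genes had groups that did not overlap, as did 13.8% of all genes in that direction. Of the 16 probe sets, 6 were called lower, none higher and 10 not called, against 12.0% of all probe sets called lower. Since the family was chosen from this contrast, nothing is read from these shares. The median difference over the 8 genes was -1.40, and that over all genes was 0.00.

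**Figure D1:**
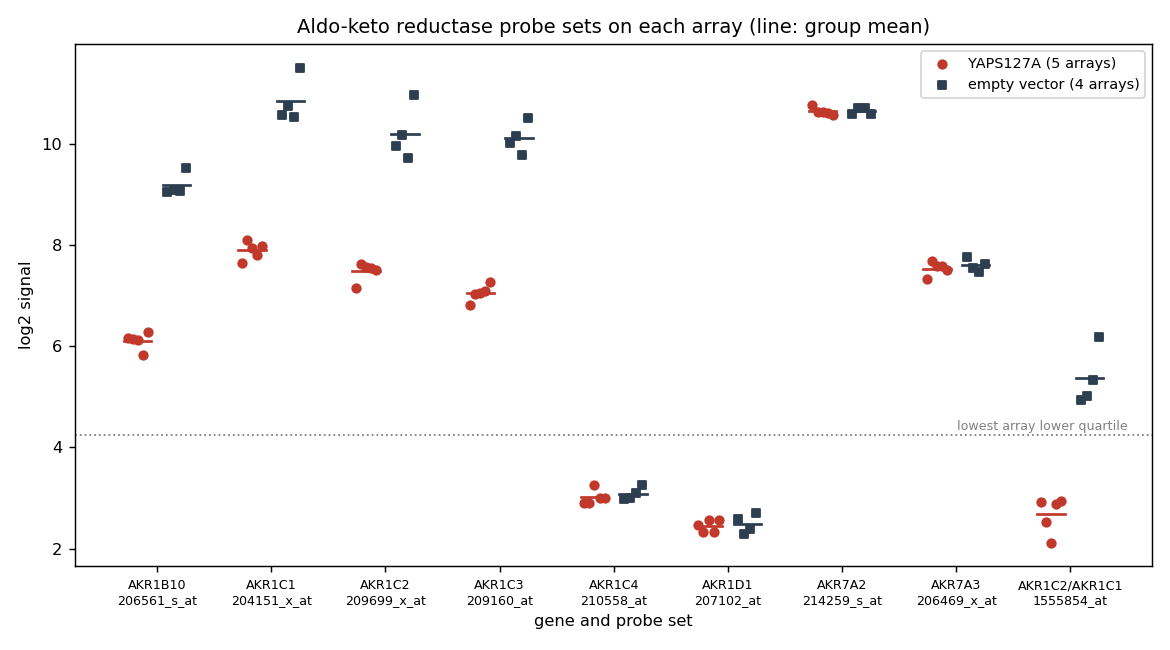
Log2 signal (vertical axis) of the brightest probe set of each measured family gene and of the AKR1C2/AKR1C1 probe set, on each of 5 YAPS127A arrays (red circles) and 4 empty vector arrays (dark squares), with lines at group means. The groups are well apart for AKR1B10, AKR1C1, AKR1C2, AKR1C3 and the shared probe set and overlap for AKR1C4, AKR1D1, AKR7A2 and AKR7A3.

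AKR1B10, the retinal-reducing member on chromosome 7, had log2 signals of 6.16, 6.15, 6.13, 5.84 and 6.28 on the YAPS127A arrays, against 9.05, 9.10, 9.07 and 9.53 on the empty vector arrays. No YAPS127A array came near the lowest empty vector array, and the gap between the groups was 2.77. The means were 6.11 ± 0.16 in YAPS127A cells and 9.19 ± 0.23 in empty vector cells (SD, n = 5 and n = 4). The difference was -3.08 (SE 0.12, 95% interval -3.33 to -2.82), which is 8.43-fold lower and the 17th lowest of 19775 genes. Its single probe set is of a kind that can match related transcripts, and the near copy AKR1B15 had no probe set of its own, so signal from that gene cannot be told apart.

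AKR1C3, which makes testosterone from androstenedione and also acts as a prostaglandin F synthase, had signals of 6.81, 7.03, 7.05, 7.09 and 7.26 on the YAPS127A arrays, against 10.02, 10.15, 9.79 and 10.51 on the empty vector arrays. The groups were again far apart. They averaged 7.05 ± 0.16 in YAPS127A cells and 10.12 ± 0.30 in empty vector cells, a difference of -3.07 (SE 0.13, 95% interval -3.36 to -2.78) or 8.38-fold lower. AKR1C3 ranked 18th lowest, next to AKR1B10. Its only probe set carries no suffix for cross-matching.

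AKR1C1, the enzyme that inactivates progesterone, had signals of 7.65, 8.10, 7.94, 7.80 and 7.98 on the YAPS127A arrays, against 10.57, 10.76, 10.53 and 11.51 on the empty vector arrays, for its brightest probe set. All YAPS127A arrays were lower than every empty vector array, and empty vector replicate 4 stood above the rest of its group. The means were 7.89 ± 0.17 in YAPS127A cells and 10.84 ± 0.45 in empty vector cells, and the difference was -2.95 (SE 0.18, 95% interval -3.34 to -2.55), 7.71-fold lower. A second bright probe set of AKR1C1 gave -2.82 (SE 0.20). Its other 3 probe sets gave -0.01, -0.03 and +0.04, with group means of 6.20, 5.28 and 4.40 in YAPS127A cells and 6.20, 5.31 and 4.36 in empty vector cells.

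AKR1C2, which reduces dihydrotestosterone to a weak androgen, had signals of 7.16, 7.63, 7.57, 7.55 and 7.50 on the YAPS127A arrays, against 9.96, 10.18, 9.72 and 10.96 on the empty vector arrays. The order of the groups was the same as for AKR1C1, with empty vector replicate 4 again highest. The means were 7.48 ± 0.19 in YAPS127A cells and 10.20 ± 0.54 in empty vector cells, a difference of -2.72 (SE 0.21, 95% interval -3.18 to -2.27) or 6.60-fold lower. Another AKR1C2 probe set gave -3.04 (SE 0.18), and a dim one gave 0.00, at 4.33 in both groups.

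The AKR1C1 and AKR1C2 probe sets with lower signals all carry the suffix that the array maker gives to probes matching several transcripts. The assignment of their differences to 1 of these genes is therefore uncertain. With probe sets of that kind left out, the differences were -0.027 for AKR1C1 and -0.00154 for AKR1C2, each on a dimmer probe set. Averaging all probe sets of a gene gave -1.15 and -1.92. The probe set that names both genes carries no such suffix and was not part of those settings. It had signals of 2.92, 2.53, 2.12, 2.88 and 2.94 on the YAPS127A arrays, against 4.95, 5.02, 5.34 and 6.17 on the empty vector arrays. All 5 YAPS127A values lay below the lower quartile of the arrays, which ran from 4.24 to 4.27, and all 4 empty vector values lay above it. The difference was -2.69 (SE 0.24, 95% interval -3.23 to -2.16), and at such dim signals it is a weak measure of size.

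AKR1C4 and AKR1D1, the liver enzymes of bile acid and steroid reduction, were dim in both groups. AKR1C4 averaged 3.01 ± 0.15 in YAPS127A cells and 3.09 ± 0.13 in empty vector cells, a difference of -0.07 (95% interval -0.27 to 0.13). AKR1D1 averaged 2.45 ± 0.12 in YAPS127A cells and 2.49 ± 0.19 in empty vector cells, a difference of -0.04 (95% interval -0.25 to 0.17). Both lie below the lower quartile of all signals, where a change may not be detectable.

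AKR7A2 and AKR7A3, neighbours on chromosome 1 that reduce succinic semialdehyde and aflatoxin dialdehyde, were well measured and close between groups. AKR7A2 had signals of 10.78, 10.64, 10.64, 10.61 and 10.58 on the YAPS127A arrays, against 10.59, 10.71, 10.72 and 10.59 on the empty vector arrays. The groups overlapped, with a difference of -0.01 (95% interval -0.15 to 0.13). A second AKR7A2 probe set gave -0.12 (95% interval -0.36 to 0.12). AKR7A3 averaged 7.54 ± 0.13 in YAPS127A cells and 7.60 ± 0.12 in empty vector cells, a difference of -0.06 (95% interval -0.25 to 0.12). Its second probe set gave -0.08 (SE 0.07). The AKR7A3 probe sets also carry the suffix for cross-matching, and the near copy AKR7L had no probe set of its own.

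**Figure D2:**
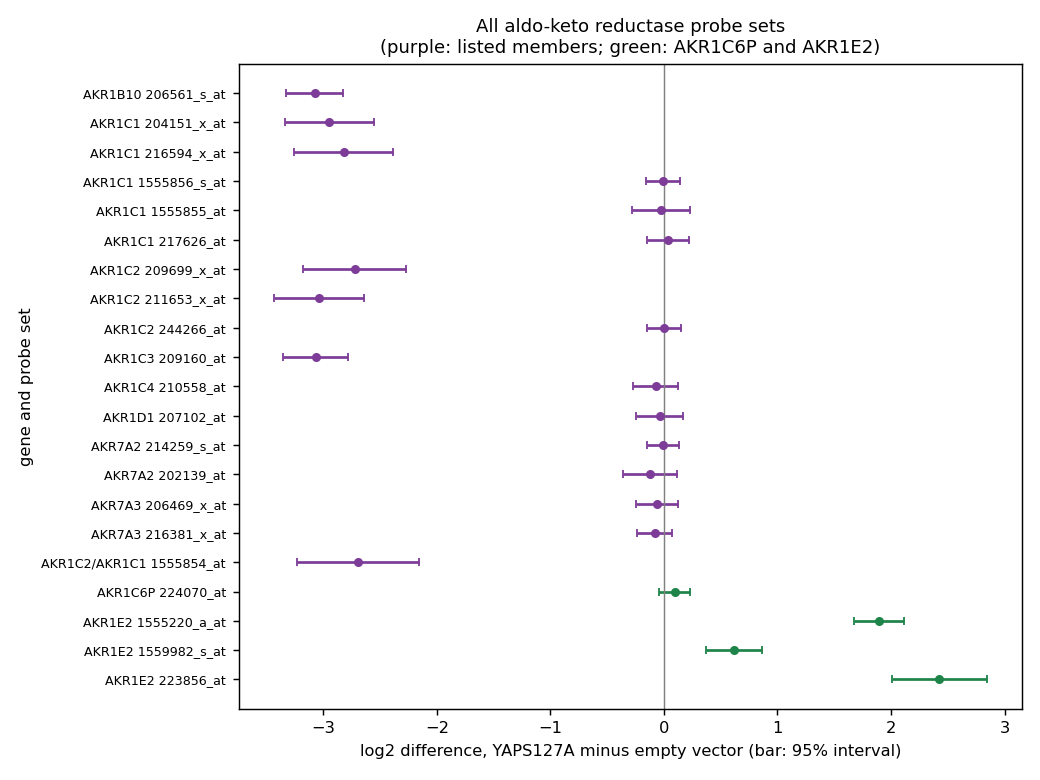
Log2 difference, YAPS127A minus empty vector, with its 95% interval (horizontal axis), for every probe set of the family (purple) and for AKR1E2 and AKR1C6P (green). The lower group of probe sets sits between -3.08 and -2.69. The other members lie near 0, as do the remaining probe sets of AKR1C1 and AKR1C2 (-0.03 to +0.04), and AKR1E2 lies to the right of 0.

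The 4 lower genes had differences of similar size, from -3.08 for AKR1B10 to -2.72 for AKR1C2. The AKR1C1 and AKR1C2 values come from probe sets that can match several transcripts, so they may not be separate measurements. In all, 36 of the 19775 genes had a difference at or below that of AKR1C2. Within the empty vector group, replicate 4 was the highest array for all 4 genes, above its group mean by 0.35 for AKR1B10, 0.67 for AKR1C1, 0.76 for AKR1C2 and 0.39 for AKR1C3. The dim AKR1C4 and AKR1D1 were also highest on that array, by 0.18 and 0.21, while AKR7A2 stood at -0.06 and AKR7A3 at +0.02 from their group means. Empty vector replicate 3 was lowest for the 3 AKR1C genes, at -0.31, -0.49 and -0.33 from its group mean. Among YAPS127A arrays, replicate 1 was lowest for the same 3 genes, at -0.24, -0.33 and -0.24. These arrays, YAPS127A replicate 1 and empty vector replicate 3, also had the largest gap between the actin control probe sets for both transcript ends, at 1.58 and 1.69, against 0.888 to 1.18 on the other 7. Without both, the differences were -3.13 for AKR1B10, -2.99 for AKR1C1, -2.80 for AKR1C2 and -3.12 for AKR1C3. Without empty vector replicate 4 they were -2.96, -2.72, -2.47 and -2.94.

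**Figure D3:**
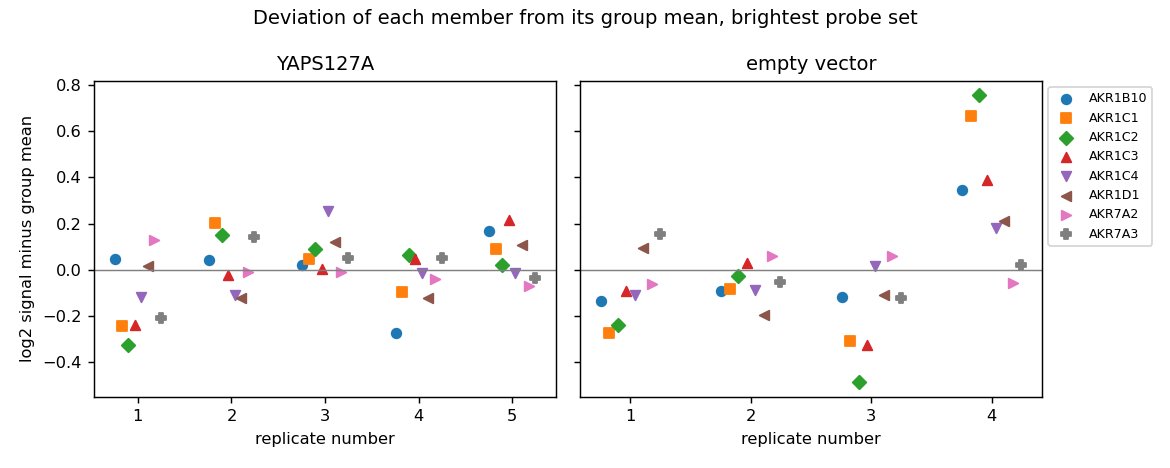
Deviation of each family gene's log2 signal from the mean of its own group (vertical axis) by replicate number, for YAPS127A arrays (left) and empty vector arrays (right). Empty vector replicate 4 lies highest for AKR1B10, AKR1C1, AKR1C2 and AKR1C3, with deviations of 0.35 to 0.76, and also for AKR1C4 (0.18) and AKR1D1 (0.21), while AKR7A2 and AKR7A3 stay near 0 there.

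A search for like patterns left out AKR genes and genes with a mean below the median of all probe sets. Distances between family members were not computed. Among the remaining genes, those whose 9 array values, each set against its own empty vector mean, lay closest to AKR1B10 were TMPRSS2, BHLHE41, VCAN, CNTNAP2 and ANXA10. Their root mean square distances were 0.149 to 0.215 log2 units. TMPRSS2, a transmembrane serine protease, averaged 5.13 ± 0.10 in YAPS127A cells and 8.18 ± 0.10 in empty vector cells. For AKR1C3 the closest were ANXA10, VCAN, TMPRSS2, CNTNAP2 and SHISA2, at distances of 0.191 to 0.232. ANXA10, an annexin, averaged 7.04 ± 0.17 in YAPS127A cells and 10.07 ± 0.15 in empty vector cells. TMPRSS2, VCAN, CNTNAP2 and ANXA10 stand on both lists. The distance includes the difference between the groups, so genes with a difference near that of the member come out close. The listed genes ranked from 12th (SHISA2) to 23rd (BHLHE41) lowest by that difference, and nothing further is read from the shared names.

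The other human genes of the superfamily went the other way or did not pass. Of 4 measured (AKR1E2, KCNAB1, KCNAB2 and KCNAB3), 2 rose and none fell, where 14.5% of all genes rose and 14.2% fell. AKR1E2, a reductase of anhydrofructose whose gene lies beside the AKR1C cluster, had signals of 6.63, 6.98, 6.23, 6.27 and 6.49 on the YAPS127A arrays, against 4.29, 3.49, 4.34 and 4.25 on the empty vector arrays. Every YAPS127A array was higher than every empty vector array. The YAPS127A signals lay above the median of all probe sets, 5.96, and the empty vector signals lay near or below the lower quartile. It rose 5.38-fold (+2.43, SE 0.19, adjusted p = 3.17e-06), and its other 2 probe sets also rose, by 1.89 (adjusted p = 1.25e-07) and 0.62 (adjusted p = 0.00186). The pseudogene AKR1C6P differed by +0.09 (SE 0.06, adjusted p = 0.341). KCNAB2, a potassium channel beta subunit with the aldo-keto reductase fold, rose 2.04-fold (+1.03, SE 0.11, adjusted p = 2.51e-05), while KCNAB1 differed by +0.18 (adjusted p = 0.263) and KCNAB3 by +0.01 (adjusted p = 0.980).

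Most genes around the AKR1C cluster did not fall with it. Of the 20 nearest measured genes on chromosome 10, 10 on each side, 10 rose, 1 fell and 9 did not pass, with a median difference of +0.22. Over all genes, 14.5% were called higher and 14.2% lower. A mean at or above the median of all probe sets was reached by 10 of the 20, and in dim genes a change may not be detectable. Those that rose were PFKP (+1.06), PITRM1 (+0.45), PITRM1-AS1 (+0.36), AKR1E2 (+2.43), NET1 (+0.26), ASB13 (+0.87), TASOR2 (+0.39), GDI2 (+0.37), ANKRD16 (+0.44) and FBH1 (+0.77). TUBAL3, a tubulin gene, fell by 0.65. Over up to 50 brighter neighbours of AKR1C1 to AKR1C4 the median difference was +0.64. Relative to it the differences were -3.59 for AKR1C1, -3.36 for AKR1C2 and -3.71 for AKR1C3, and AKR1E2 stayed higher (+1.79, adjusted p = 9.95e-06). The dim AKR1C4 differed by -0.07 before the subtraction, so its value of -0.71 came mostly from the subtracted +0.64.

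**Figure D4:**
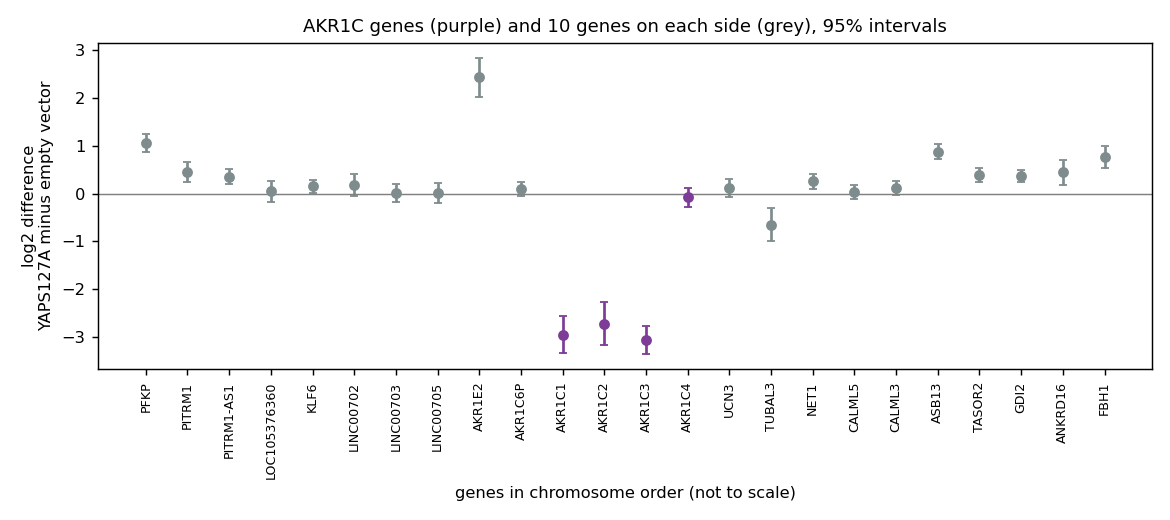
Log2 difference, YAPS127A minus empty vector, with 95% intervals (vertical axis), for the measured AKR1C genes (purple) and the 10 nearest measured genes on each side (grey) in chromosome order, not to scale. AKR1C1, AKR1C2 and AKR1C3 lie between -3.07 and -2.72 among neighbours that are mostly at or above 0.

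At the AKR1B locus on chromosome 7, 2 of 20 neighbours rose (LINC00513 and STMP1), 1 fell (BPGM, -0.79) and 17 did not pass. Their median was +0.01, and over all genes 14.5% were called higher and 14.2% lower. Near AKR7A2 and AKR7A3 on chromosome 1, IFFO2 and UBR4 rose, MRTO4 and OTUD3 fell and 16 of 20 did not pass (median -0.04). Around AKR1A1, UROD, MUTYH and TSPAN1 rose, ZSWIM5, CCDC163 and PIK3R3 fell and 14 of 20 did not pass (median -0.07). Around AKR1D1, STMP1 and CREB3L2 rose, PTN and TRIM24 fell and 16 of 20 did not pass (median -0.09). The AKR1B and AKR1D1 neighbours share some genes, among them STMP1. The median over the brighter neighbours of AKR1B10 was +0.02.

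NRF2 target genes outside the family were mixed. Of 25 measured (36% called, against 28.7% of all genes), 3 rose, 6 fell and 16 did not pass. The median difference was -0.04. GPX2, a glutathione peroxidase, averaged 4.97 ± 0.24 in YAPS127A cells and 6.19 ± 0.08 in empty vector cells and fell 2.34-fold (-1.23, SE 0.11, adjusted p = 1.08e-05). NQO1, a quinone reductase and standard NRF2 target, averaged 12.18 ± 0.13 in YAPS127A cells and 12.66 ± 0.09 in empty vector cells and fell by 0.48 (SE 0.08, adjusted p = 0.000834). EPHX1, an epoxide hydrolase, fell by 0.60 (adjusted p = 0.00107), HMOX1, heme oxygenase, by 0.47 (adjusted p = 0.0052), and ALDH3A1 by 0.36 (adjusted p = 0.0106). ABCC3, an export pump, fell by 0.59 (adjusted p = 0.000989), but differed by -0.04 (adjusted p = 0.759) without probe sets that carry the suffix for cross-matching. GCLM, a subunit of the enzyme that starts glutathione synthesis, rose by 0.52 (SE 0.08, adjusted p = 0.000412), though with its neighbours' median removed it differed by +0.08 (adjusted p = 0.386). PIR rose by 0.45 (adjusted p = 0.00187), and SLC7A11, the cystine carrier, by 0.38 (adjusted p = 0.00463). TXNRD1 (+0.04), GCLC (-0.04) and SRXN1 (+0.10) did not pass. The largest difference among those that passed was that of GPX2.

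The regulators of NRF2 were mixed as well. Of 10 measured (50% called, against 28.7% of all genes), 2 rose, 3 fell and 5 did not pass, and the median was -0.02. NFE2L2, which encodes NRF2, averaged 11.07 ± 0.17 in YAPS127A cells and 11.42 ± 0.12 in empty vector cells (-0.35, SE 0.09, adjusted p = 0.0172). As a mean of its 3 probe sets it differed by -0.11 (adjusted p = 0.191), and without empty vector replicate 3 its adjusted p was 0.0533. KEAP1, the adaptor that marks NRF2 for breakdown, differed by +0.05 (adjusted p = 0.632). SQSTM1, an autophagy receptor that binds KEAP1, fell by 0.69 (adjusted p = 4.95e-06) on its brightest probe set, but 2 of its 5 probe sets rose and 2 fell. Without those that carry the suffix for cross-matching SQSTM1 rose by 0.43 (adjusted p = 0.00102). NFE2L3 rose by 0.42 (adjusted p = 0.000302) and MAFF by 0.35 (adjusted p = 0.00421). MAFG, another small partner protein, fell by 0.27 (adjusted p = 0.0307), a call lost in 9 of 19 alternatives, among them the actin gap as a covariate (adjusted p = 0.054). Without empty vector replicate 3, 3 of the 10 were called.

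Retinoid genes fell or did not pass on their brightest probe sets. AKR1B10 and AKR1C3 reduce retinal. Of 15 measured genes of retinoid handling (40% called, against 28.7% of all genes), none rose, 6 fell and 9 did not pass. The median was -0.19. ALDH1A2 did not pass (+0.21, adjusted p = 0.114), though 1 of its 2 probe sets was called higher. RARB, a retinoic acid receptor that retinoic acid itself induces, had signals of 6.98, 7.29, 7.43, 7.06 and 7.20 on the YAPS127A arrays, against 9.32, 9.31, 9.25 and 9.49 on the empty vector arrays. The groups did not overlap, and RARB fell 4.43-fold (-2.15, SE 0.09, adjusted p = 3.15e-08), or by 0.87 as a mean of its 5 probe sets. DHRS3, which reduces retinal to retinol, fell by 1.20 (SE 0.09, adjusted p = 2.22e-06). CRABP2, a carrier of retinoic acid, fell by 0.76 (adjusted p = 1.39e-05), RDH10, a retinol dehydrogenase, by 0.62 (adjusted p = 0.00034) and ALDH1A3, which makes retinoic acid, by 0.48 (adjusted p = 0.000582). STRA6, a retinol carrier, fell by 0.65 (adjusted p = 0.0017), with -0.33 (adjusted p = 0.127) on its brightest probe set without the suffix for cross-matching.

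Prostaglandin genes changed in both directions, some by large amounts. Of 20 measured (50% called, against 28.7% of all genes), 5 rose, 5 fell and 10 did not pass, with a median of -0.02. PTGS2, the inducible cyclooxygenase, had signals of 8.56, 8.46, 8.56, 8.78 and 8.87 on the YAPS127A arrays, against 11.95, 11.90, 11.86 and 11.85 on the empty vector arrays. It fell 9.46-fold (-3.24, SE 0.09, adjusted p = 7.01e-10). PLA2G4A, the phospholipase that frees arachidonic acid, averaged 2.57 ± 0.22 in YAPS127A cells and 6.35 ± 0.33 in empty vector cells (-3.79, SE 0.15, adjusted p = 1.45e-08). The YAPS127A signal lies below the arrays' lower quartile, where a log2 difference is a weak measure of size. PTGS1, the constitutive cyclooxygenase, rose 3.87-fold, with 9.85 ± 0.09 in YAPS127A cells and 7.90 ± 0.11 in empty vector cells (+1.95, SE 0.07, adjusted p = 7.86e-09). SLCO2A1, the prostaglandin uptake carrier, rose by 1.89 (SE 0.13, adjusted p = 9.27e-07), and PTGER2, a receptor, fell by 1.69 (SE 0.13, adjusted p = 2.27e-06). ABCC4, an exporter, rose by 0.61 (adjusted p = 1.98e-05), but differed by +0.15 (adjusted p = 0.0579) with its neighbours' median removed. PTGIS, PTGR1, PTGR2 and HPGD complete the 10, and the PTGR2 call was lost in 8 of 20 alternatives.

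HPGD, which breaks prostaglandins down, was named after its values were seen. Its brightest probe set differed by -0.36 (adjusted p = 0.0425), a call lost in 10 of 18 alternatives, and its other 3 gave -3.80, -3.87 and -4.55. Those 3, at signals below the lower quartile in YAPS127A cells, had means of 3.71, 3.48 and 2.55 in YAPS127A cells and 7.51, 7.35 and 7.11 in empty vector cells, and the mean over all 4 fell by 3.15 (adjusted p = 2.02e-10).

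Steroid genes were mixed. Of 25 measured (36% called, against 28.7% of all genes), 6 rose, 3 fell and 16 did not pass, with a median of +0.03. HSD3B1, a steroid dehydrogenase, rose by 0.96 (adjusted p = 5.56e-05), HSD17B2, which inactivates testosterone and estradiol, by 0.83 (adjusted p = 0.000174), and CYP11A1, which cleaves the cholesterol side chain, by 0.73 (adjusted p = 0.000119). HSD17B8 (+0.31, adjusted p = 0.0209), SULT1E1 (+0.32, adjusted p = 0.027) and HSD11B2 (+0.27, adjusted p = 0.0475) complete the 6, and their calls were lost in 2 of 20, 6 of 19 and 15 of 20 alternatives. HSD17B1, which makes estradiol, fell by 0.46 (adjusted p = 0.00697). HSD17B4 and HSD17B12 fell by 0.25 and 0.28 (adjusted p = 0.0166 and 0.00567), and with neighbours' medians removed the values were -0.12 for HSD17B4 (adjusted p = 0.249) and +0.11 for HSD17B12 (adjusted p = 0.214).

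Bile acid genes fell or did not pass. Of 14 measured (35.7% called, against 28.7% of all genes), none rose, 5 fell and 9 did not pass, with a median of -0.03. SLC27A2 fell by 0.73 (adjusted p = 9.56e-05), CYP27A1, a sterol hydroxylase, by 0.51 (adjusted p = 0.000463), and ACOX2, a peroxisomal oxidase, by 0.50 (adjusted p = 0.00649). HSD17B4, already given, and FGF19 (-0.33, adjusted p = 0.0286) complete the 5, and 3 of them were called without empty vector replicate 4. FGF19 was at 4.24 in empty vector cells, near the lower quartile of the arrays.

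Other carbonyl-reducing and aldehyde-oxidising enzymes were also mixed, with 2 higher, 3 lower and 10 not passed of 15 measured. That is 33.3% called, against 28.7% of all genes. AOX1, aldehyde oxidase, rose by 0.48 (adjusted p = 0.000226) and ALDH2 by 0.44 (adjusted p = 0.00295). ALDH1A3, ALDH3A2 (-0.39, adjusted p = 0.00151) and DHRS2 (-0.43, adjusted p = 0.0144) fell. Without both arrays with the largest actin gap, DHRS2 had an adjusted p of 0.0857. CBR1, the main carbonyl reductase outside the family, differed by +0.04 (adjusted p = 0.799).

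**Figure D5:**
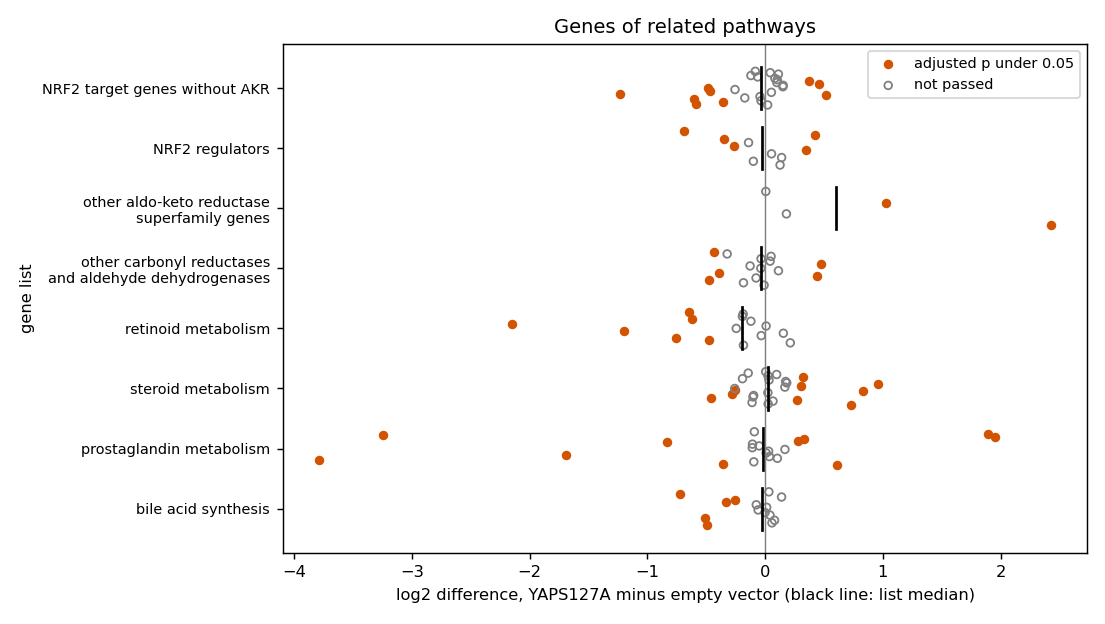
Log2 difference, YAPS127A minus empty vector (horizontal axis), of every measured gene in lists of related pathways, with filled points for adjusted p under 0.05, open points for the rest and a black line at each list's median. Medians lie near 0 except for the retinoid list (-0.19) and the 4 other superfamily genes, and the widest spread is in the prostaglandin list, where PTGS2 and PLA2G4A lie far to the left.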

How the data were processed

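Total RNA of HuCCT1 cells was labelled with biotin and hybridised to single-colour arrays, per the labels' protocols. The table deposited by the authors holds 1 value per probe set and array, taken as a log2 signal because the values run from 1.62 to 15.0. How it was normalized and summarised is not stated in the labels. Array medians lay between 5.95 and 5.98, and no further scaling was applied. The number of arrays limits the precision. There were 0 columns of other samples.

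Groups came from the vector named in the labels. The 62 control probe sets were left out, and of the 54613 tested the platform annotation names 1 gene for 41091, several for 1801 and none for 11721. The RefSeq table of GRCh38.p14 gave current symbols, with 41037 probe sets matched. Where a gene had several probe sets, the one with the highest mean stood for it, giving 19775 genes. The comparison was fitted by lmFit and eBayes of limma 3.58.1, under R 4.3.3, without covariates and with 11.4 total degrees of freedom. Benjamini-Hochberg adjustment covered all probe sets, at a threshold of 0.05. This fit was tested on simulated data. Intervals are 95% intervals of that fit, ± marks an SD over arrays, and SE is the standard error of a difference. Python 3.11.15 with matplotlib 3.10.9 drew the figures.

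The members and the gene lists were chosen with earlier results of these data known. Named are all members, YAP1, ANKRD1, CCN1 and CCN2, up to 6 genes of each list with the lowest p-values, genes that complete a count, called neighbours, and the 5 genes closest to AKR1B10 and to AKR1C3. Those 5 were sought outside the family, among genes with a mean at or above the median of all probe sets. TXNRD1, GCLC, SRXN1, KEAP1, CBR1, KRT19 and ALB were chosen after their values were seen. Promoter windows were found for 9 of the 10 members, all but AKR1B10. Replicate numbers did not pair the arrays: the deviations of same-numbered arrays from their group means correlated at -0.25 to 0.04. Alternatives covered normalization, dim probe sets, the variance model, array weights, the replicate block, arrays left out, the choice of probe set, neighbouring genes and the actin gap.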

Additional observations from a re-analysis of the deposited data

Results flagged for a closer look

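Of 128 groups of arrays searched, 11 held an array that stood far from the rest of its group, 6 of them among 42 groups of aldo-keto reductase probe sets. Chance gives about 1 in 20 groups. AKR1B10 was highest on empty vector replicate 4, at 9.53, with the other 3 arrays at 9.05 to 9.10. AKR1C2 was lowest on YAPS127A replicate 1, at 7.16, with the other 4 at 7.50 to 7.63, and without that array the difference was -2.64. Without empty vector replicate 4 that of AKR1B10 was -2.96. AKR1E2 was lowest on empty vector replicate 2, at 3.49, with the others at 4.25 to 4.34.

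Among family probe sets whose groups overlapped, a probe set of AKR1C1 was lowest on YAPS127A replicate 3, at 6.11, another was highest on YAPS127A replicate 5, at 4.53, and AKR1C4 was highest on YAPS127A replicate 3, at 3.27.

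In the related lists, PIR was lowest on YAPS127A replicate 1, at 9.57, and on empty vector replicate 3, at 9.13, the arrays with the largest actin gaps. ALDH3A2 was highest on empty vector replicate 3, at 10.69, CRABP2 on empty vector replicate 2, at 12.09, and NR0B2 on YAPS127A replicate 5, at 4.90.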

How the results depend on the processing

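The differences of AKR1B10, AKR1C1, AKR1C2 and AKR1C3 kept their sign under every alternative run. With 1 array left out they ranged from -3.12 to -2.96 for AKR1B10, -3.05 to -2.72 for AKR1C1, -2.89 to -2.47 for AKR1C2 and -3.18 to -2.94 for AKR1C3. Averaging all probe sets gave -1.15 for AKR1C1 and -1.92 for AKR1C2. Probe sets without the suffix for cross-matching gave -0.027 for AKR1C1, -0.00154 for AKR1C2 and -0.12 for AKR7A2, and AKR1B10 has none of that kind. The probe set naming both AKR1C2 and AKR1C1, also without the suffix, was not part of that setting and gave -2.69. Removing the neighbours' median gave -3.59 for AKR1C1, -3.36 for AKR1C2, -3.71 for AKR1C3 and -0.71 for AKR1C4. For the dim AKR1C4 that value is mostly the subtracted +0.64. With the replicate number as a block, which could pair only 4 arrays of each group, the differences were -3.12, -2.97, -2.73 and -3.12 for AKR1B10, AKR1C1, AKR1C2 and AKR1C3, 10306 probe sets were called against 13052 and 4459 genes against 5676, and the bile acid count was 3. With 1 array left out, 11099 to 12497 probe sets and 4861 to 5464 genes were called.

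Called genes of the bile acid list numbered 3 without dim probe sets and 3 to 5 with 1 array left out, where the main count was 5. Called NRF2 regulators numbered 3 to 5 with 1 array left out, and 1 other superfamily gene was called without dim probe sets. Of 59 called list genes followed, 42 kept direction and call in all alternatives, 15 lost the call and 3 reversed in at least 1, with HSD11B2 in both counts. The reversals were SQSTM1 at +0.43 without probe sets that carry the suffix for cross-matching, and HSD17B12 at +0.11 and HSD11B2 at -0.10 with the neighbours' median removed. The cause of these changes was not tested. A pseudocount was not needed for log2 values. Probe sets below the arrays' lower quartile, among them AKR1C4 and AKR1D1, limit what can be detected, and dim ones have no value where they were left out.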
